A study of Bos taurus with 147 samples.

Results

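The genes described are 10 that take part in the assembly of the Z-disc and the thin filament of skeletal muscle: TCAP, LDB3, MYOT and PDLIM3 of the Z-disc, ACTA1, NEB and TMOD4 of the thin filament, and CMYA5, ANKRD1 and FHL1, which are partners of titin, desmin or the sarcomere. They were taken by name from the 976 genes that the annotation of the array gives to single elements, and all 10 were measured on every array used. The study chose most of them on these same samples, since TCAP, TMOD4, PDLIM3, MYOT, CMYA5, ANKRD1 and ACTA1 are among its genes of rising expression. Their directions here are thus not independent evidence. LDB3, FHL1 and NEB are not among those genes. The entries of the study's full list of genes that differed between the sire breeds could not be read here, so that any of the 10 may be in it.

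In striated muscle the Z-disc anchors the barbed ends of the actin filaments of neighbouring sarcomeres through alpha-actinin and holds the end of the giant protein titin. The thin filament that leaves it is a polymer of skeletal alpha-actin, with nebulin along its length and a tropomodulin cap at its pointed end. These structures are put together as myotubes form and mature into fibres before birth.

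RNA of longissimus muscle was compared on 25 two-colour cDNA arrays in Piedmontese-sired and Wagyu-sired fetuses of gestation days 60, 135 and 195 (d 60, d 135 and d 195) and in newborn calves, all out of Hereford dams. The Piedmontese sires were homozygous for a missense mutation of GDF8, the gene of myostatin, a brake on muscle growth, and the Wagyu sires did not carry it. Another 20 arrays of the series compared longissimus muscle of Piedmontese x Hereford (PH) and Wagyu x Hereford (WH) animals at 3 times, T1, T2 and T3, whose ages the labels do not give. The questions were how the level of each gene moved with stage and whether it differed between the sire breeds. The methods give 3 animals per group, and a single bull of each breed sired the fetuses of d 60, so that breed and bull cannot be told apart at that stage. The Wagyu-sired fetuses of d 135 and the Piedmontese-sired fetuses of d 195 also had 1 sire each, and 2 of the 3 Piedmontese-sired fetuses of d 195 were twins. At d 60 the muscle could not yet be told apart as a structure, so that tissue from its later position was taken and skin was harder to remove, and amplification may have biased the RNA of 1 animal of that stage, as the study states. Every change given here against d 60 includes these limits. The newborn calves were sampled within a day of birth, and the study states that their values may also reflect birth trauma. All newborn calves were female, while each group of d 135 and d 195 held both sexes. Every change to birth includes these limits. The elements of the array came from cDNA libraries of adult Angus muscle and subcutaneous fat, not of fetal muscle.

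Each array gave 1 log2 ratio for each of 21168 elements. The ratio was turned to later over earlier stage or Piedmontese over Wagyu, a direction that is likely, given the dye labels, the drawn design and the signs in the authors' tables. After removal of ratios at the upper limit of the table, 19404 to 20771 elements per fetal array and 20794 to 20946 per crossbred array carried a value, and each array was centred on its median. The stages of a breed were joined by 3 arrays per step (4 for d 195 over d 135 in Wagyu-sired fetuses), and the breeds met on 3 arrays at d 60 and 3 at birth. The later stage was in the Cy3 dye on every Piedmontese-sired stage array and in the Cy5 dye on every Wagyu-sired one. Values of single arrays given below keep the dye effect, which thus runs in opposite directions in the breeds. Array numbers are not tied to animals and animals were used on several arrays, so that p-values measure the spread between arrays. On 1 array with the same RNA in both dyes, the 10 genes read from -0.06 (FHL1) to 0.49 (CMYA5), against an SD of 0.36 over 16545 features.

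All 10 genes rose between d 60 and birth in both sire breeds. TCAP rose most in Piedmontese-sired muscle, 21.9-fold, and TMOD4 most in Wagyu-sired muscle, 16.9-fold, while NEB rose least in both, 1.60-fold in Piedmontese-sired and 4.05-fold in Wagyu-sired muscle. Of all 16659 features tested with limma, 22.1% rose over the same interval when the sire was Piedmontese and 20.2% when it was Wagyu. Of these features 975 were named genes, averaged over their elements, and the rest were single elements. The 10 genes averaged 2 (LDB3) to 184 (ACTA1) elements, so that the shares of all features are not shares of genes measured alike. Median log2 ratios of the 10 genes stood at 2.60 in Piedmontese-sired and 2.94 in Wagyu-sired muscle, against medians over all features of 0.01 in Piedmontese-sired and -0.10 in Wagyu-sired muscle. In bulk muscle, fewer cells of a type and less RNA per cell cannot be told apart. All 10 measured markers of fibroblasts and matrix fell over the same interval, with log2 ratios of -5.09 to -0.81 in Piedmontese-sired and -4.24 to -0.93 in Wagyu-sired muscle, and their part in the rises was not tested. Of 9 markers of skeletal muscle 7 rose in both breeds and the myogenic factors MYOG and MYF5 fell. Heart muscle, blood and epidermis had no measured marker.

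**Figure D1:**
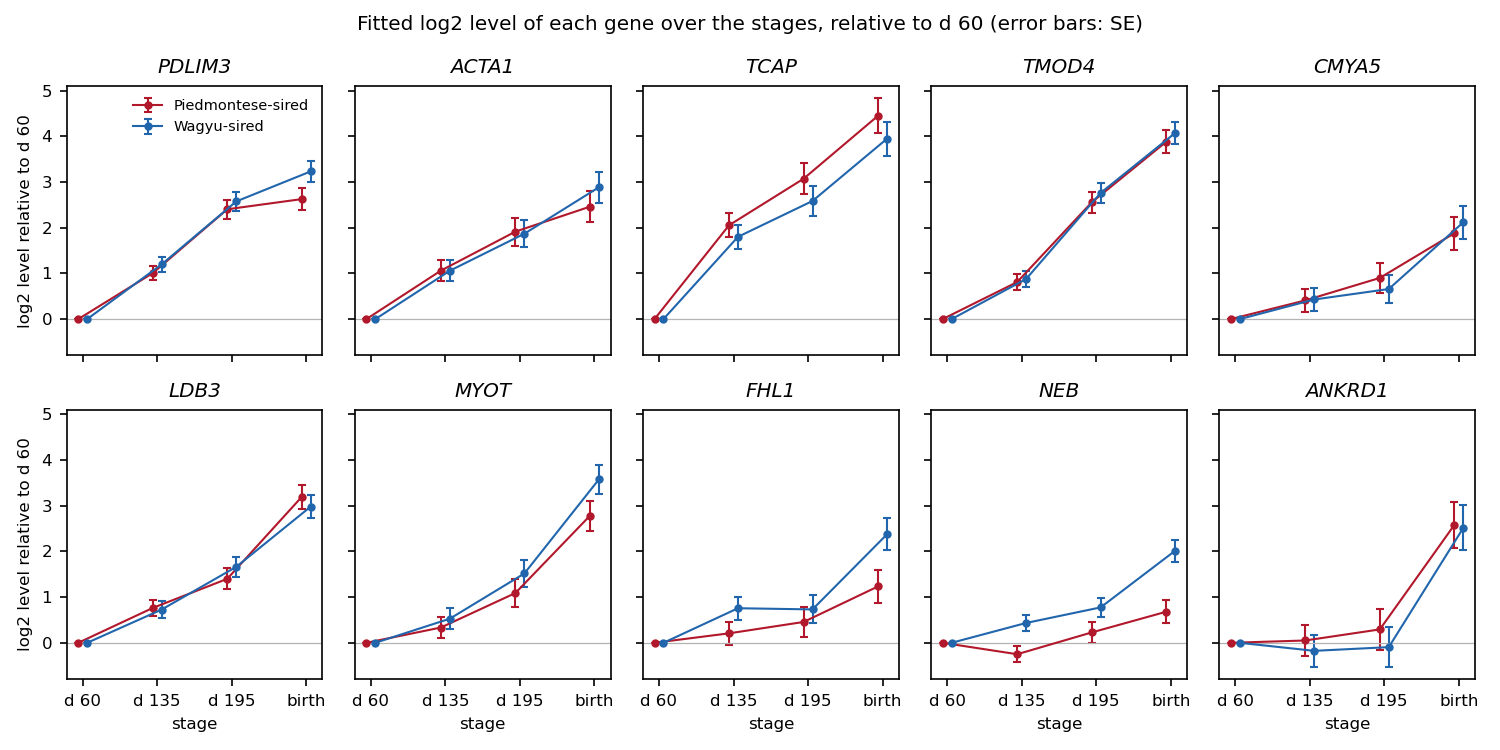
The y axis gives the fitted log2 level against that of d 60, and the x axis the stage, for each gene, Piedmontese-sired in red and Wagyu-sired in blue, with SE bars. At birth TCAP reached 4.45 in Piedmontese-sired and 3.95 in Wagyu-sired calves, whereas ANKRD1 was at 0.29 in Piedmontese-sired and -0.09 in Wagyu-sired fetuses of d 195.

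Among the Z-disc genes, TCAP, whose product telethonin caps the end of titin, had the largest rise by d 135. In Piedmontese-sired muscle its log2 ratios were 1.83, 1.87 and 2.27 on the arrays of d 135 over d 60, 1.36, 1.08 and 0.41 on those of d 195 over d 135, and 1.42, 0.90 and 1.62 on those of birth over d 195. The Wagyu-sired arrays of the same steps gave 1.76, 1.99 and 1.86, then 1.68, 0.38, 0.80 and 0.54, then 1.04, 2.30 and 0.96. All 19 arrays were above 0, and the values of the first step lay in a narrower band than those of the later steps. From d 60 to d 135 the level rose 4.16-fold in Piedmontese-sired (SE 0.26 on the log2 scale, adjusted p = 1.51e-05 by limma) and 3.49-fold in Wagyu-sired fetuses (SE 0.26, adjusted p = 2.29e-04). The 20 elements of TCAP, from 9 sequences, gave rises to birth of 2.78 to 5.54 as the mean of both breeds.

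PDLIM3, also known as ALP, is a PDZ and LIM protein that binds alpha-actinin. Its log2 ratios in Piedmontese-sired muscle were 1.03, 0.58 and 1.08 for d 135 over d 60, 1.74, 1.39 and 0.74 for d 195 over d 135, and -0.08, 0.04 and 0.37 for birth over d 195. Wagyu-sired muscle gave 1.12, 1.45 and 1.37, then 1.47, 1.31, 1.78 and 1.39, then 0.97, 0.98 and 0.36. The third step was near 0 on 2 of the 3 Piedmontese-sired arrays and above 0 on all 3 Wagyu-sired arrays, with overlap between the breeds. By limma PDLIM3 rose in the first and second steps in both breeds and in the third in Wagyu-sired calves (log2 ratio 0.66, SE 0.16, adjusted p = 0.00211), while in Piedmontese-sired calves that ratio was 0.22 (SE 0.16, adjusted p = 0.295). The call in Wagyu-sired calves was lost with arrays scaled to one median absolute deviation and without those numbered 1 or 2, with values down to 0.32 and adjusted p up to 0.268. The breeds differed in the third step by -0.44 (95% confidence interval -0.87 to -0.00, adjusted p = 0.286). Its 24 elements gave rises to birth of 0.22 to 3.74 as the mean of both breeds. A single sequence of 11, with 2 elements, read 0.26, and the other sequences lay between 2.80 and 3.62.

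LDB3, which encodes a PDZ and LIM protein that ties alpha-actinin to signalling proteins, rose in every step in both breeds. Piedmontese-sired arrays gave log2 ratios of 0.99, 0.63 and 0.77, then 0.63, 0.67 and 0.72, then 1.92, 1.91 and 1.66. For Wagyu-sired arrays the values were 0.74, 0.94 and 0.40, then 0.65, 1.01, 0.56 and 1.38, then 1.77, 0.84 and 1.26. The last step was the largest in the fit, 3.47-fold in Piedmontese-sired (adjusted p = 2.05e-07) and 2.50-fold in Wagyu-sired calves (adjusted p = 4.33e-06). In Piedmontese-sired calves its 3 arrays all lay above every array of the earlier steps. Only 2 elements of 1 sequence carry its name.

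MYOT encodes myotilin, which binds alpha-actinin, filamin C and actin. In Piedmontese-sired muscle the log2 ratios were 0.18, 0.14 and 0.54, then 1.41, 0.57 and 0.14, then 1.33, 1.77 and 1.84, and in Wagyu-sired muscle 0.40, 0.85 and 0.47, then 0.66, 0.86, 1.54 and 1.09, then 2.77, 2.10 and 1.45. Every array was above 0, with the highest values in the last step. Neither first step passed (adjusted p = 0.298 in Piedmontese-sired and 0.15 in Wagyu-sired fetuses), and at d 195 MYOT stood 2.13-fold above d 60 in Piedmontese-sired (adjusted p = 0.00783) and 2.86-fold in Wagyu-sired fetuses (adjusted p = 5.55e-04). The step to birth was 3.23-fold in Piedmontese-sired and 4.17-fold in Wagyu-sired calves.

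Of the thin filament genes, ACTA1, the gene of skeletal alpha-actin, rose early in the fit used here. Its log2 ratios were 1.08, 0.74 and 1.00, then 0.42, 1.15 and 0.63, then 0.69, -0.12 and 0.70 in Piedmontese-sired muscle. In Wagyu-sired muscle they were 1.63, 1.26 and 0.65, then 1.43, 0.73, 0.27 and 1.29, then 1.08, 0.63 and 1.70. A single array was below 0, that of birth over d 195 in Piedmontese-sired calves. The first step was 2.09-fold in both breeds (adjusted p = 0.00189 in Piedmontese-sired and 0.0058 in Wagyu-sired fetuses), and the third passed in Wagyu-sired calves (2.02-fold, adjusted p = 0.00139) and not in Piedmontese-sired calves (1.46-fold, adjusted p = 0.0713), a difference between breeds of -0.47 (95% confidence interval -1.11 to 0.17, adjusted p = 0.441). ACTA1 was measured by 184 elements, 182 of which were above 0 from d 60 to birth as the mean of both breeds, over a range of -0.67 to 4.60. Cross-hybridisation with other actin transcripts was not tested.

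TMOD4 encodes the tropomodulin that caps the pointed ends of thin filaments in skeletal muscle. Piedmontese-sired log2 ratios were 0.78, 0.50 and 1.31, then 1.91, 1.69 and 1.78, then 1.57, 1.19 and 1.37. Wagyu-sired log2 ratios were 0.75, 1.10 and 0.63, then 1.59, 1.65, 2.16 and 1.93, then 1.82, 1.24 and 0.73. On every array between d 135 and d 195 TMOD4 was higher than on any array between d 60 and d 135. The middle step was 3.35-fold in Piedmontese-sired (SE 0.17 on the log2 scale, adjusted p = 3.51e-06) and 3.69-fold in Wagyu-sired fetuses (SE 0.15, adjusted p = 2.74e-07), and the breeds differed in it by -0.14 (95% confidence interval -0.58 to 0.30, adjusted p = 1).

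For NEB, the gene of nebulin, neither step before d 195 passed in Piedmontese-sired muscle (adjusted p = 0.299 and 0.116 by limma). The log2 ratios were 0.00, -0.77 and -0.21 for d 135 over d 60, 0.66, 0.47 and 0.08 for d 195 over d 135, and 0.18, 0.52 and 0.44 for birth over d 195. Wagyu-sired arrays gave 0.46, 0.77 and 0.30, then 0.20, 0.39, 0.74 and 0.33, then 1.80, 1.27 and 0.88. On single arrays the breeds did not overlap in the first step or in the third, where all Wagyu-sired arrays were higher. These values keep the dye effect (dye term of NEB 0.07 in the fetal fit). By limma the difference between breeds passed in neither step (adjusted p = 0.148 in the first and 0.136 in the third). NEB rose from d 195 to birth 1.37-fold in Piedmontese-sired (adjusted p = 0.0397) and 2.36-fold in Wagyu-sired calves (adjusted p = 6.03e-06). In Piedmontese-sired muscle the calls of NEB for this step and for d 60 to birth (adjusted p = 0.0302) were lost, among other settings, without the arrays numbered 1 or 2, with adjusted p up to 0.274 for the step and 0.269 for the whole rise.

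The remaining genes encode partners of these structures. CMYA5 encodes myospryn, a large protein that binds desmin at the border of the Z-disc and the cell membrane. Its log2 ratios were 0.78, -0.13 and 0.64, then 0.96, 0.56 and 0.02, then 1.20, 0.80 and 0.99 in Piedmontese-sired muscle, and 0.79, 0.27 and 0.17, then 0.40, -0.15, 0.05 and 0.54, then 2.53, 0.99 and 0.82 in Wagyu-sired muscle. The last step alone passed in each breed, 1.97-fold in Piedmontese-sired (adjusted p = 0.00388) and 2.75-fold in Wagyu-sired calves (adjusted p = 8.11e-05). With ratios at the upper limit of the table kept, the Piedmontese-sired value of that step was 0.14 on the log2 scale (adjusted p = 0.834), against 0.98 without them. That of the whole rise from d 60 to birth was 1.16 (adjusted p = 0.0902), against 1.88 without them.

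FHL1, a LIM-domain protein of the sarcomere, gave 0.66, -0.19 and 0.13, then 0.43, 0.57 and -0.29, then 0.84, 0.43 and 1.04 in Piedmontese-sired muscle. In Wagyu-sired muscle the log2 ratios were 0.85, 0.95 and 0.50, then -0.24, -0.16, 0.20 and 0.13, then 2.46, 1.49 and 1.01. The Wagyu-sired course was thus a first step on 3 of 3 arrays (1.69-fold, adjusted p = 0.0504), values on both sides of 0 between d 135 and d 195, and a step to birth of 3.13-fold (adjusted p = 1.70e-05). In Piedmontese-sired muscle the third step was 1.72-fold (adjusted p = 0.0159), a call lost with arrays scaled to one median absolute deviation and without those numbered 2 or 3 (adjusted p up to 0.0773), and the rise from d 60 to birth did not pass without the arrays numbered 1 (adjusted p = 0.156). Of 50 elements in 21 sequences 46 were above 0 from d 60 to birth as the mean of both breeds.

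ANKRD1 encodes an ankyrin repeat protein that binds titin in the I-band and is also found in the nucleus. Its log2 ratios before d 195 scattered around 0, with -0.07, -0.48 and 0.56, then 0.95, 0.20 and -0.57 in Piedmontese-sired fetuses, and 0.14, 0.21 and -0.73, then -0.02, 0.04, 0.47 and 0.02 in Wagyu-sired fetuses. For birth over d 195 they were 1.86, 1.25 and 3.60 in Piedmontese-sired and 3.53, 2.49 and 1.95 in Wagyu-sired calves. Each of these 6 arrays was above all 13 arrays of the earlier steps. The step was 4.88-fold in Piedmontese-sired (SE 0.35 on the log2 scale, adjusted p = 2.39e-05) and 6.11-fold in Wagyu-sired calves (SE 0.35, adjusted p = 3.78e-06), the largest of the 10 genes in that step in each breed. Its 5 sequences did not read alike, with rises from d 60 to birth of 1.26, 1.45, 2.19, 3.77 and 4.10 as the mean of both breeds. The study's own ratio, of averaged signal intensities regardless of breed, already marked a rise of ANKRD1 from d 60 to d 195. The reason for this difference from the fit used here was not tested.

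**Figure D2:**
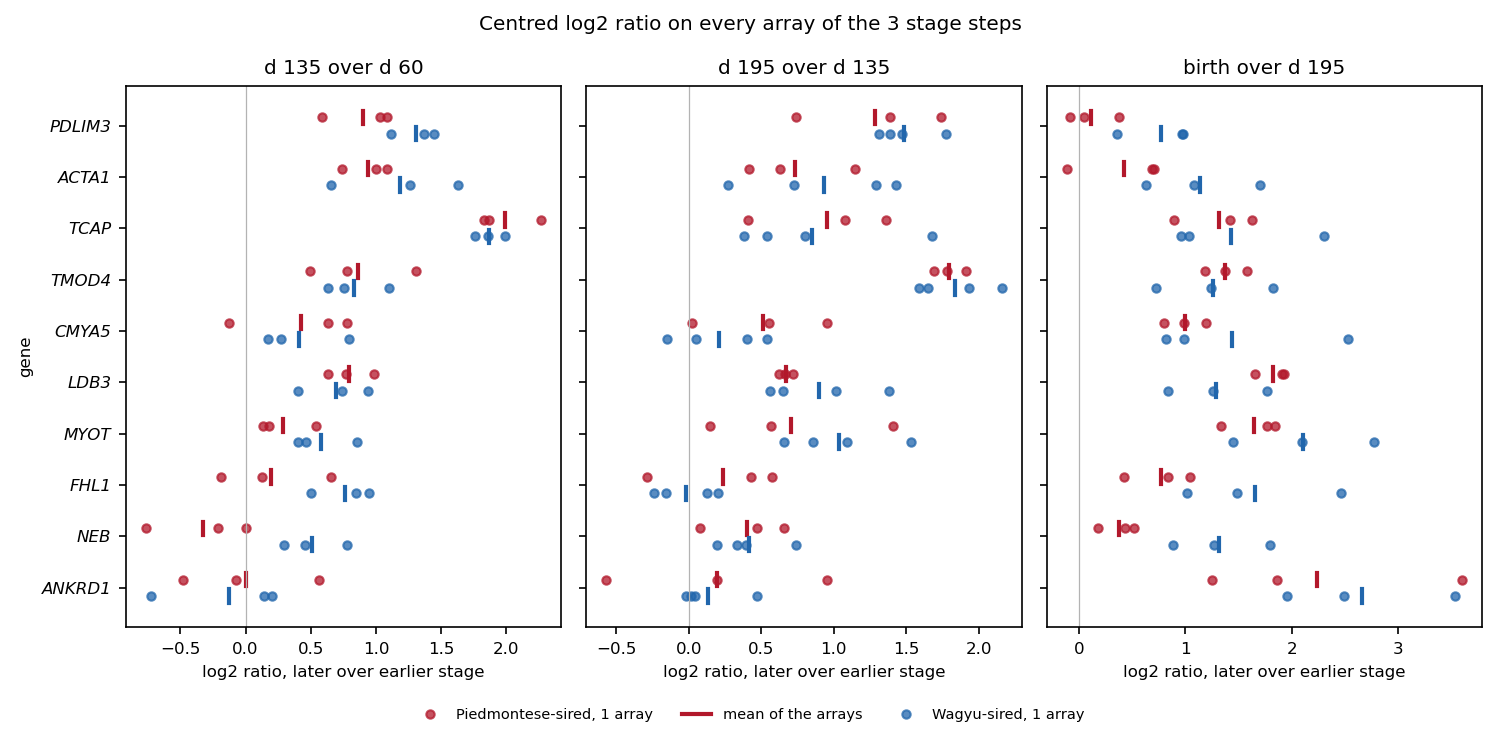
Centred log2 ratio of later over earlier stage (x axis) on every array for each gene (y axis), in 1 panel per step. Red points are Piedmontese-sired and blue points Wagyu-sired arrays, and short bars are their means. TMOD4 lies between 1.59 and 2.16 in the middle panel, and ANKRD1 between 1.25 and 3.60 in the last.

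The rise of each gene was then divided over the stages as a description of the order of induction. In Piedmontese-sired muscle the share of the log2 rise from d 60 to birth that had been reached at d 195 was 91.5% for PDLIM3, 77.8% for ACTA1, 69.0% for TCAP and 65.8% for TMOD4. CMYA5 followed with 48.0%, LDB3 with 43.8%, MYOT with 39.2%, FHL1 with 36.9%, NEB with 33.3% and ANKRD1 with 11.4%. These values placed PDLIM3, ACTA1, TCAP and TMOD4 before the other genes.

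In Wagyu-sired muscle the same 4 genes came first, with 79.7% for PDLIM3, 67.8% for TMOD4, 65.5% for TCAP and 64.8% for ACTA1. LDB3 had 55.7%, MYOT 42.4%, NEB 38.5%, CMYA5 31.1%, FHL1 30.8% and ANKRD1 -3.77%. ANKRD1 was last in both breeds. The share of NEB at d 135 in Piedmontese-sired fetuses was -36.7%, over a rise to birth of 0.68. The shares carry no error of their own. The log2 levels at d 195 against d 60, a different quantity, overlapped within 1 SE in 6 of the 9 pairs of neighbours in each order, and where they did not, they need not follow the order of the shares: in Piedmontese-sired fetuses ACTA1, with the larger share, was at 1.92 and TCAP at 3.07.

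**Figure D3:**
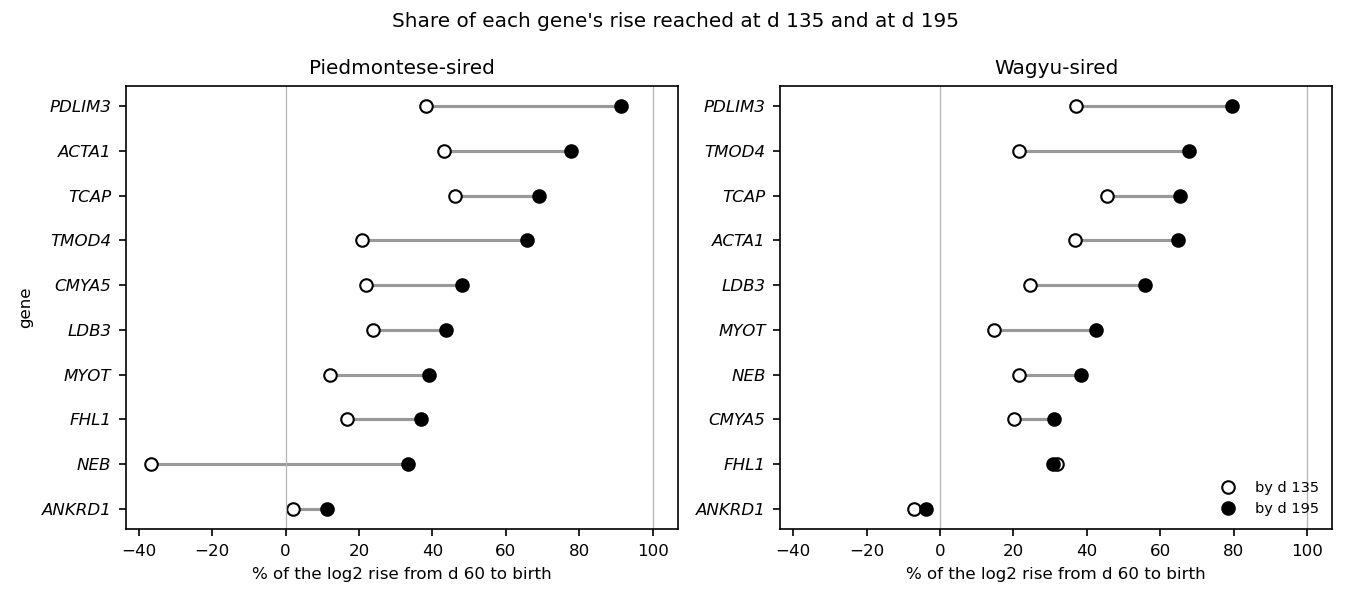
Share of the log2 rise from d 60 to birth (x axis, in %) reached by d 135 (open circles) and by d 195 (filled circles) for each gene (y axis), Piedmontese-sired left and Wagyu-sired right, ordered by the filled circles. PDLIM3 is first, at 91.5% in Piedmontese-sired and 79.7% in Wagyu-sired muscle, and ANKRD1 last, at 11.4% in Piedmontese-sired and -3.77% in Wagyu-sired muscle.

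The step with the largest rise was d 60 to d 135 for TCAP and ACTA1 in both breeds, d 135 to d 195 for PDLIM3 and TMOD4 in both breeds and for NEB in Piedmontese-sired muscle, and d 195 to birth for LDB3, MYOT, CMYA5, ANKRD1 and FHL1 in both breeds and for NEB in Wagyu-sired muscle. For ACTA1 the steps were close, with 1.06, 0.81 and 1.02 in Wagyu-sired muscle. The steps were not of equal length in days, so that their sizes are not rates. For NEB in Piedmontese-sired muscle the step to d 195 (0.48, SE 0.17, adjusted p = 0.116) did not pass and the step to birth was nearly as large (0.45, SE 0.17, adjusted p = 0.0397). Against d 60, TCAP, LDB3, PDLIM3, ACTA1 and TMOD4 had passed at d 135 in both breeds. The study's own ratios, of averaged signal intensities regardless of breed, were unlike these for several genes. At d 135 they were above d 60 for TCAP but below it for PDLIM3, ACTA1 and TMOD4, and LDB3 was not listed. The reason was not tested. In the fit used here LDB3 in Wagyu-sired fetuses lost its call at d 135 without centring and without the arrays numbered 1 or 2 (adjusted p up to 0.194 by limma). There ACTA1 lost it without those numbered 1 or 2 (up to 0.112), and TMOD4 without those numbered 2 (0.11). In Piedmontese-sired fetuses LDB3 lost it without the arrays numbered 1 (0.0598). MYOT in both breeds, CMYA5 in Piedmontese-sired and NEB in Wagyu-sired fetuses first passed at d 195. The others first passed at birth, ANKRD1 among them, which the study's own ratios marked as risen at d 195. Of the calls at d 195 in the fit used here, CMYA5 in Piedmontese-sired fetuses (adjusted p = 0.0399) was lost under 7 of 14 other settings, with adjusted p up to 0.34. MYOT in Piedmontese-sired fetuses was lost without the arrays numbered 1 or 2 (adjusted p up to 0.0893), and NEB in Wagyu-sired fetuses without centring and without those numbered 2 or 3 (adjusted p up to 0.128).

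By step, 5 of the 10 genes rose from d 60 to d 135 in Piedmontese-sired and 5 in Wagyu-sired fetuses, where 11.6% (Piedmontese-sired) and 6.83% (Wagyu-sired) of all features rose. From d 135 to d 195 TCAP, LDB3, PDLIM3, ACTA1 and TMOD4 rose in Piedmontese-sired fetuses and the same 5 with MYOT in Wagyu-sired fetuses, where 4.14% (Piedmontese-sired) and 5.87% (Wagyu-sired) of all features rose. From d 195 to birth 8 rose in Piedmontese-sired calves, all but PDLIM3 and ACTA1, and all 10 in Wagyu-sired calves, where 20.7% (Piedmontese-sired) and 21.7% (Wagyu-sired) of all features rose. Over the whole fetal interval, d 60 to d 195, 7 genes rose in each breed, against 15% of features when the sire was Piedmontese and 12.7% when it was Wagyu. None of the 10 fell in any step by this test. In Piedmontese-sired fetuses the calls of TCAP, LDB3 and ACTA1 from d 135 to d 195 were lost without centring of the arrays and without the arrays numbered 1, 2 or 3, with adjusted p up to 0.256 for TCAP, 0.204 for LDB3 and 0.307 for ACTA1, whereas those of PDLIM3 and TMOD4 held under all 14 other settings. In Wagyu-sired fetuses the calls of the same step were lost for TCAP without centring and without the arrays numbered 1, 3 or 4 (adjusted p up to 0.321), for ACTA1 without those numbered 1, 2 or 4 (up to 0.119) and for MYOT without those numbered 2 (0.0711). With arrays scaled to one median absolute deviation, TCAP (adjusted p = 0.0543), ACTA1 (adjusted p = 0.123) and PDLIM3 lost their calls from d 195 to birth in Wagyu-sired calves.

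Genes of the same structures that are not among the 10 moved mostly in the same direction from d 60 to birth. Of all features, 22.1% rose over this interval in Piedmontese-sired and 20.2% in Wagyu-sired muscle. Of 15 other genes of the Z-disc and costamere measured of 44 listed, 11 rose from d 60 to birth in each breed and none fell, with a median log2 ratio of 1.69 in Piedmontese-sired and 1.73 in Wagyu-sired muscle. The largest were MYOZ1, which binds calcineurin at the Z-disc (3.42 as the mean of both breeds), the fast alpha-actinin ACTN3 (3.13) and CSRP3, a muscle LIM protein (2.75). Of 10 measured thin filament genes among 24, 8 rose in Piedmontese-sired and 9 in Wagyu-sired muscle and none fell, led by TPM2 (2.12), TNNI2 (1.87) and TNNC1 (1.85), which encode tropomyosin and troponin subunits. For the thick filament and the M-band, 6 of 19 were measured, of which 4 rose in Piedmontese-sired and 5 in Wagyu-sired muscle, with MYH1 (3.17), MYL1 (2.33) and MYOM2 (1.34) highest. Single steps held falls. From d 195 to birth 2 of the 15 Z-disc and costamere genes fell in each breed. Their lowest log2 ratios were -1.68 in Piedmontese-sired and -0.77 in Wagyu-sired muscle. In Piedmontese-sired muscle 1 of the 6 thick filament and M-band genes also fell in that step, and 1 thin filament gene fell from d 60 to d 135.

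Over the 25 fetal arrays the 45 pairs of the 10 genes had Pearson correlations of 0.31 to 0.89 (median 0.69), highest for PDLIM3 with TMOD4. These arrays share groups and stages. The correlations of this paragraph used ratios of Cy5 over Cy3, not turned to later over earlier stage. A rise thus had opposite signs on the stage arrays of the breeds, so that genes that rise correlate through this layout of the dyes. MYOT lay closest to the mean of the other 9 genes (r = 0.93) and ANKRD1 farthest (r = 0.70). Among 871 other named genes, the mean of the 10 was most like MYH1, a fast myosin heavy chain (r = 0.95), LOC787122 and LOC784938 (both 0.94), ATP2A1, the calcium pump of fast fibres (0.93), and ASB12 (0.93).

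Whether the sire breeds differed in the course was tested as the difference of the changes, Piedmontese minus Wagyu. From d 60 to birth NEB and FHL1 rose less in Piedmontese-sired than in Wagyu-sired muscle, where 13.2% of all features differed in either direction. For NEB the log2 rise was 0.68 in Piedmontese-sired and 2.02 in Wagyu-sired muscle, a difference of -1.34 (SE 0.22, 95% confidence interval -1.80 to -0.87, adjusted p = 0.00276 by limma). For FHL1 it was 1.24 in Piedmontese-sired and 2.38 in Wagyu-sired muscle, a difference of -1.14 (SE 0.32, 95% confidence interval -1.81 to -0.47, adjusted p = 0.0283). The arrays that carried both breeds lay on opposite sides of 0 at the 2 ends for NEB, with Piedmontese over Wagyu log2 ratios of 0.38, 0.70 and 0.95 at d 60 and -0.21, -0.47 and -0.85 at birth. FHL1 read -0.19, 0.72 and 0.92 at d 60 and 0.02, -0.65 and -1.28 at birth, where array 1 of each stage was near 0 or on the other side. Across elements the difference ran from -1.52 to -1.13 for the 8 of NEB, and 49 of the 50 of FHL1 were below 0. Of 10 fibroblast and matrix markers, 2 were also lower in this difference, and their part was not tested. Without the arrays numbered 2 or 3 neither difference passed (adjusted p = 0.105 and 0.0973 for NEB, 0.317 and 0.245 for FHL1).

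The other 8 genes did not pass this test. The nearest were PDLIM3, with a difference of -0.61 (95% confidence interval -1.04 to -0.17, adjusted p = 0.0573), and MYOT, with -0.80 (-1.42 to -0.17, adjusted p = 0.0793). For single steps 0 of the 10 genes differed between breeds, against 0% of features from d 60 to d 135 (1702 of them at an unadjusted p under 0.05), 0.012% from d 135 to d 195 (480 at an unadjusted p under 0.05) and 0% from d 195 to birth (2900 at an unadjusted p under 0.05). NEB came nearest, with -0.68 in the first step (adjusted p = 0.148) and -0.79 in the third (adjusted p = 0.136).

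Within a stage 0 of the 10 genes differed between the sire breeds in the fit with limma, where 0.048% of features differed at d 60, 0% at d 135 (262 at an unadjusted p under 0.05), 0% at d 195 (446 at an unadjusted p under 0.05) and 0.276% at birth. Before adjustment, 1 of the genes had a p under 0.05 at d 60 and 3 at birth. The fitted ratio of NEB, Piedmontese over Wagyu, was 0.75 at d 60 (SE 0.17, adjusted p = 0.0904) and -0.58 at birth (SE 0.17, adjusted p = 0.1). TCAP read 0.84, -0.54 and 0.87 at birth, so that its arrays disagreed in sign, and ANKRD1 read 0.33, -0.68 and 0.49. At both stages array 1 of the breed comparison correlated with arrays 2 and 3 over all features at no more than 0.06, while arrays 2 and 3 correlated at 0.62 at d 60 and 0.56 at birth. With array 1 of both links left out, a choice made after the data were seen, the differences from d 60 to birth were -1.56 for NEB (adjusted p = 9.91e-04) and -1.64 for FHL1 (adjusted p = 0.00226).

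**Figure D4:**
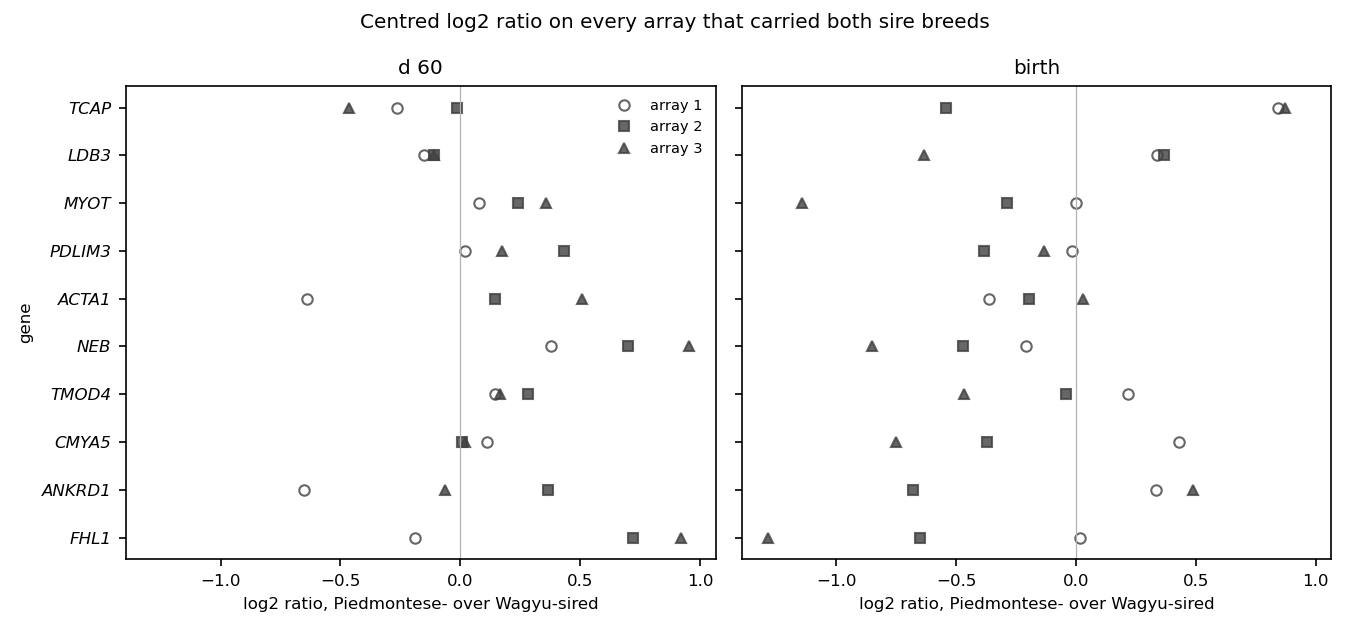
Centred log2 ratio of Piedmontese- over Wagyu-sired muscle (x axis) on each array that carried both breeds, for each gene (y axis), at d 60 (left) and at birth (right), with array 1 drawn open. NEB lies between 0.38 and 0.95 at d 60 and between -0.85 and -0.21 at birth.

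In the later crossbred muscle the levels could not be set against the fetal ones, since no array joined them. PH and WH animals met on 4 arrays at each time with balanced dyes, and each step in time was measured on 2 arrays per cross. Of the 10 genes, ANKRD1 had the largest fitted changes. Its log2 ratios of PH over WH were -2.04, -1.94, -0.95 and -0.88 at T1, -0.39, -0.32, -0.13 and -0.13 at T2, and 0.13, 0.15, 0.70 and 0.75 at T3. All 4 arrays were below 0 at T1 and at T2 and all 4 above 0 at T3, and the times did not overlap. At T1 ANKRD1 was 2.69-fold lower in PH than in WH muscle (log2 ratio -1.43, SE 0.18, 95% confidence interval -1.80 to -1.05, adjusted p = 0.00636 by limma), where 0.753% of features differed.

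In WH animals ANKRD1 fell in each step. The arrays gave -1.34 and -0.66 for T2 over T1 and -1.28 and -0.87 for T3 over T2. In PH animals they gave 0.36 and -0.24, then -0.53 and 0.11, on both sides of 0. By limma it fell by 1.04 on the log2 scale from T1 to T2 in WH muscle (SE 0.22, adjusted p = 0.0186, where 3.35% of features differed) and by 1.01 from T2 to T3 (SE 0.22, adjusted p = 0.00933, where 9.67% differed). The step from T1 to T2 in PH muscle exceeded that in WH muscle by 1.14 (SE 0.22, 95% confidence interval 0.67 to 1.60, adjusted p = 0.0108, where 1.13% of features differed). In the same contrast 5 of 10 fibroblast and matrix markers and 3 of 8 adipocyte markers were lower, and their part was not tested. That from T2 to T3 had a difference of 0.74 (SE 0.22, adjusted p = 0.187, where 0.84% of features and 0 of the 10 genes passed, TCAP and ANKRD1 at an unadjusted p under 0.05). All 10 elements of ANKRD1 lay between -1.60 and -1.13 for PH over WH at T1. The calls for ANKRD1 at T1 and in the steps between times did not pass without the arrays numbered 1 or those numbered 2, with directions kept. With arrays 1 and 2, and 3 and 4, averaged as opposite-dye pairs, the T1 difference was -1.42 with an adjusted p of 0.915. The difference between crosses from T1 to T2 (adjusted p = 0.338) and the fall from T1 to T2 in WH muscle (adjusted p = 0.0982) did not pass either, while the fall from T2 to T3 did (adjusted p = 0.0424).

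LDB3 was the other gene of the 10 that passed within a cross. It fell by 0.72 from T2 to T3 in WH muscle (arrays -0.83 and -0.60, SE 0.21, adjusted p = 0.0356, with adjusted p up to 0.388 with arrays numbered 1 or 2 left out and an adjusted p of 0.108 with opposite-dye pairs averaged), and in PH muscle the same step gave -0.26 and -0.997 (log2 ratio -0.62, adjusted p = 0.107). Markers of fibroblasts and matrix moved as well, with 6 of 10 lower at T3 than at T2 in WH and 5 of 10 in PH muscle, and 3 of 8 adipocyte markers were lower in WH muscle over that step. Their part in these values was not tested.

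No other gene of the 10 passed in the crossbred arrays. In PH muscle 0 of the 10 passed from T1 to T2 (5.38% of features, 3 of the genes at an unadjusted p under 0.05) and 0 from T2 to T3 (3.76% of features, 2 of the genes at an unadjusted p under 0.05). Between crosses 0 passed at T2 (3.28% of features, 1 of the genes at an unadjusted p under 0.05) and 0 at T3 (0.539% of features, 1 of the genes at an unadjusted p under 0.05). NEB, whose rise from d 60 to birth differed between breeds, read 1.20, 1.33, -0.57 and -0.34 on the T1 arrays of PH over WH, a pattern of opposite signs on arrays 1 and 2 against 3 and 4 that ACTA1 (0.75, 0.83, -0.45 and -0.30) and FHL1 (0.64, 1.23, -1.26 and -0.82) shared. Over all features the arrays 1 and 2 or 3 and 4 of a time correlated at 0.13 to 0.62, and the other pairs at -0.65 to 0.29. The spread between these pairs of arrays was larger than the fitted difference of NEB (0.46, SE 0.24), ACTA1 (0.24, SE 0.20) and FHL1 (0.00, SE 0.31).

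**Figure D5:**
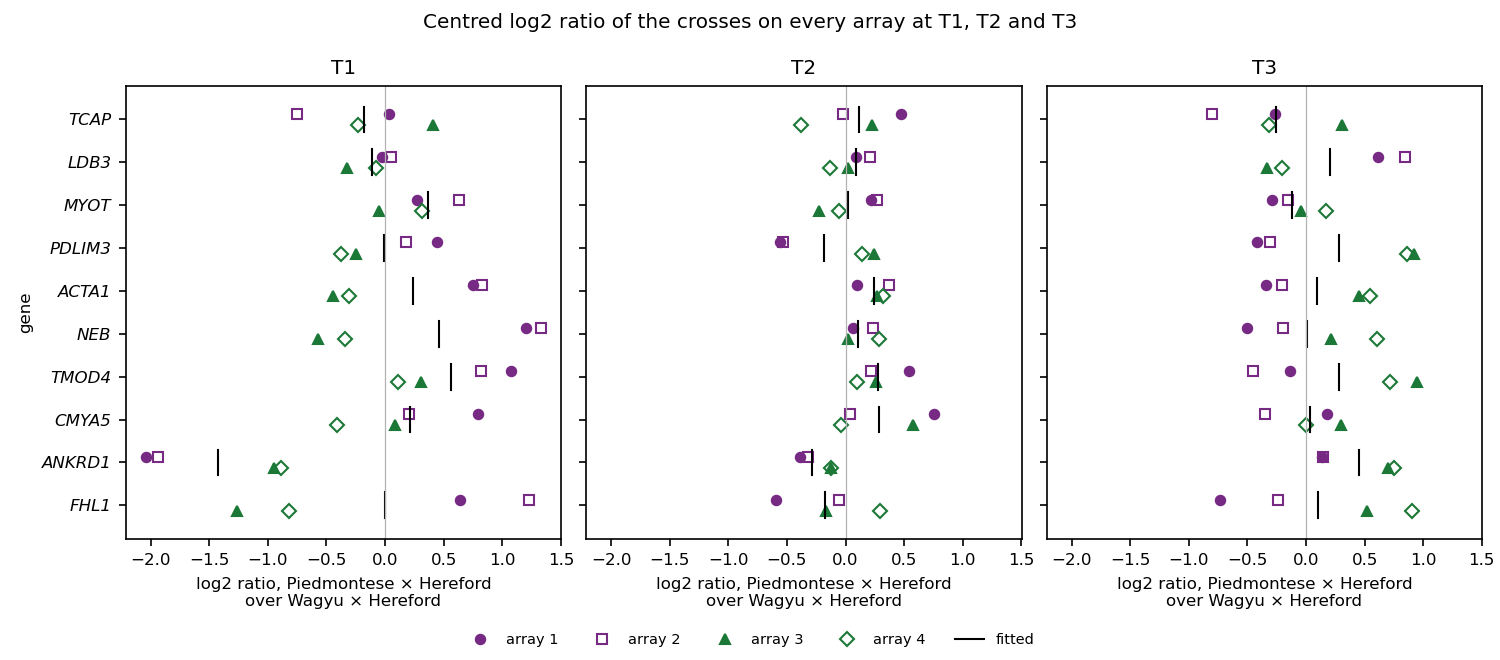
Centred log2 ratio of Piedmontese x Hereford over Wagyu x Hereford muscle (x axis) on each of the 4 arrays at T1, T2 and T3 for each gene (y axis), arrays 1 and 2 in purple above arrays 3 and 4 in green, with the fitted value as a black bar. ANKRD1 has fitted values of -1.43, -0.29 and 0.45 at T1, T2 and T3, and NEB lies on both sides of 0 at T1.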

How the data were processed

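The deposited table held log2 ratios of Cy5 over Cy3, which the authors made from GenePix scans of arrays with each element printed in duplicate, hybridised with linearly amplified RNA. The methods state edits made to each dye channel on its own, then background correction and a log transform. Which of these the deposited ratios went through is not given in the sources used here, and neither intensities nor 24 columns of other experiments were used. Ratios at the upper limit (24 to 216 per array) were set to missing, arrays (medians -0.482 to 0.465) were centred on their median, and elements with 1 gene symbol were averaged per gene. All other elements were kept as single features. The 25 fetal and 20 crossbred arrays were fitted separately with limma 3.58.1 in R 4.3.3, Cy5 group plus 1, Cy3 group minus 1, with an intercept for the dye. Dyes were never swapped within a fetal link, so that the dye term rests on the closure of the loop. The dye term of the 10 genes was -0.05 to 0.12 in the fetal fit and -0.20 to 0.29 in the crossbred fit. Features with values on at least 20 fetal or 16 crossbred arrays were kept (16659 and 17253), with 17 and 14 residual degrees of freedom and 3.53 and 3.23 prior ones. The p-values of a comparison were corrected together for all features (Benjamini-Hochberg), and those under 0.05 passed. The number of arrays limits the precision.

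Named genes were the 10 genes, the 3 largest changes of each other list from d 60 to birth, and the 5 genes most correlated with the mean of the 10. The genes and lists were chosen with earlier results of these data known. The model was tested on simulated data. A search of promoter windows for motifs was not run, and no sequence is shown. Alternatives were centring, scaling, array weights, no dye term, upper-limit ratios kept, element medians, other filters, array number as a block, opposite-dye pairs averaged and each array number left out.

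Same-numbered fetal arrays that share a group deviated with a mean correlation of -0.148 (-0.662 to 0.525, 24 pairs), and other such arrays with 0.0644 (54 pairs). In the loop a shared group was in Cy5 on an array and in Cy3 on the next. A shared animal would thus make these correlations negative. The values do not settle whether array numbers pair arrays, and array number was not entered in the fit.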

Additional observations from a re-analysis of the deposited data

Results flagged for a closer look

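On the 4 arrays of d 195 over d 135 in Wagyu-sired fetuses, array 3 stood apart for ANKRD1, at 0.47 against -0.02 to 0.04 on the others, a gap of 0.881 of the whole range. Chance flags about 1 in 20 groups, and 1 of 40 groups of 4 arrays was flagged here. NEB and FHL1 differed between the sire breeds in their change from d 60 to birth, by -1.34 and -1.14 on the log2 scale (Piedmontese minus Wagyu). ANKRD1 differed between the crosses in its change from T1 to T2, by 1.14 (PH minus WH).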

How the results depend on the processing

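Over 27 counts of the genes that passed, 342 of 378 values under other settings lay within 1.5 times the reported count. For 80 called values, 1035 of 1120 kept their call, 85 lost it and 0 reversed. Without centring, 2 genes rose from d 135 to d 195 in Piedmontese-sired fetuses, 1 differed between breeds from d 60 to birth and 1 passed for WH T3 over T2. With arrays scaled to one median absolute deviation, 1 gene (NEB) differed between breeds at d 60 and 1 passed for WH T3 over T2. With arrayWeights, 8 rose from d 60 to d 135 in Wagyu-sired fetuses. The same weights gave 1 gene that differed between breeds from d 60 to d 135, 2 from d 195 to birth, 4 from d 60 to birth and 2 at d 60, with 1 each for PH T2 over T1 (CMYA5) and PH T3 over T2 (TCAP). With array 1 of both breed links left out, chosen after seeing the data, 2 differed from d 195 to birth, 4 from d 60 to birth and 2 at birth. With opposite-dye arrays averaged, 0 passed for WH T2 over T1, 0 for PH minus WH T2 over T1 and 0 for PH over WH at T1 (limma, where 0 features passed at T1), and 1 for WH T3 over T2.

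Leaving out the array numbers 1 at a time, the counts ran from 2 to 5 for Piedmontese d 195 over d 135, 2 to 5 for Wagyu d 135 over d 60, 0 to 4 for Piedmontese minus Wagyu from d 60 to birth, 0 to 2 for the breeds at birth, 0 to 1 for WH T2 over T1, 0 to 2 for WH T3 over T2, 0 to 1 for PH minus WH T2 over T1 and 0 to 1 for PH over WH at T1. NEB in that breed comparison ran from -1.57 to -1.14 and FHL1 from -1.64 to -0.79 with array numbers left out. FHL1 also did not pass without centring (-1.04, adjusted p = 0.0669). ANKRD1 for PH over WH at T1 ran from -1.66 to -1.17. The rise of NEB from d 60 to birth in Piedmontese-sired muscle (adjusted p = 0.0302) lost its call under 5 of 14 settings. The cause of these changes was not tested, beyond the fewer arrays of the settings that leave some out.

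With array number as a random replicate block the consensus correlation was -0.0267 in the fetal and 0.0273 in the crossbred fit, and no count of the 10 genes changed: 10 rose from d 60 to birth in each breed, and 2 differed between breeds. This block assumes the same correlation for all arrays of a number. It cannot represent negative correlations limited to arrays that share a group.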

Other observations

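Over the 20 crossbred arrays, the named genes whose ratios were most like those of ANKRD1, chosen after the values were seen, were HSPB8 (Pearson r = 0.90), TRIM54 (0.87), KLHL40 (0.86), RBIS (0.73) and SNU13 (0.71), of 965 compared. HSPB8 encodes a small chaperone of muscle, TRIM54 a ubiquitin ligase of the titin-binding MURF family, and KLHL40 a kelch protein that binds nebulin. KLHL40 was lower in PH than in WH muscle at T1 (log2 ratio -1.24, adjusted p = 0.0157 by limma) and fell by 1.64 from T1 to T2 in WH muscle (adjusted p = 0.00238). TRIM54 was lower in PH than in WH muscle at T1 (-0.94, adjusted p = 0.0142) and fell by 0.89 from T1 to T2 in WH muscle (adjusted p = 0.0186). HSPB8 was lower in PH than in WH muscle at T1 as well (-0.76, adjusted p = 0.0247). These arrays share groups, and the 3 genes were picked for their likeness to ANKRD1, so that their values are a description.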
